A study of Mus musculus with 288 samples.

Results

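A total of 9 surface proteins by which a macrophage shows that it is activated, or through which it speaks to T cells and neighbouring cells, were followed at the transcript level: Icam1, Cd40, Cd80, Cd83, Cd86, Cd274, Cd69, Ccrl2 and Tnfrsf1b. They were chosen by name, and all 9 were found among the 23481 genes of the UMI count table (a UMI is a distinct random barcode, so that copies of a molecule made by PCR are counted once). The cells were bone marrow-derived macrophages of C57BL/6 mice aged 12 weeks, differentiated for 7 days in medium with M-CSF. They were pretreated with an inhibitor for 24 h, dCA being given at 100 nM and BRD-6989 at 1 µM, or with DMSO, for which the labels give no duration; the labels call dCA and BRD-6989 inhibitors of CDK8, a kinase of the Mediator complex. They then received CpG, FLA, LPS, MDP, MDP_LPS, Pam3cys, Poly(I:C), R848, SeV, TDB or Zymosan, named here as in the labels, or no stimulus (NoStim), and were collected after 15, 30, 45, 60, 90, 120, 150 or 180 min. Each combination of pretreatment, stimulus and time was 1 well. A pretreatment filled a single plate of 96 wells, read under 1 index of its own, and the effects of an inhibitor and of its plate cannot be told apart. Within a plate, each stimulus was a column and each time a row. No label says that wells came from separate cultures or animals. Every p-value therefore measures only the spread between these wells, or between libraries summed from them, which may be technical. For summed libraries it includes how a difference between pretreatments varied over the stimuli. For single wells it includes how differences varied over the times.

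As background, ICAM-1 is the adhesion ligand of the leukocyte integrins LFA-1 and Mac-1. CD80 and CD86 give T cells the second signal through CD28, CD40 receives CD40 ligand from helper T cells, CD83 marks mature antigen-presenting cells, and CD274 (PD-L1) restrains T cells through PD-1. CD69 is an early activation marker of leukocytes, CCRL2 is an atypical receptor that binds chemerin, and TNFRSF1B is TNF receptor 2. Pattern-recognition receptors such as the Toll-like receptors raise many of these genes in macrophages through NF-κB, AP-1 and interferon-regulated factors.

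All 9 genes were placed by a RefSeq annotation of GRCm38.p6 (mm10): Cd40 on chromosome 2 (165055614 to 165071654), Tnfrsf1b on 4 (145212368 to 145246870), Cd69 on 6 (129267324 to 129275375), Icam1 on 9 (21015940 to 21028814), Ccrl2 on 9 (111054834 to 111057518), Cd83 on 13 (43785112 to 43803133), Cd86 on 16 (36568956 to 36666158), Cd80 on 16 (38457430 to 38495958) and Cd274 on 19 (29362107 to 29388095). Promoters (250 bases before to 50 after an annotated start) of 5 of the 9 were at hand, from RefSeq on the same build. The 3 shown belong to genes that passed tests of the response to stimuli, and Icam1 and Tnfrsf1b differed from DMSO in opposite directions under BRD-6989. Each is written 5′ to 3′ on the strand of its gene, with matches to the motifs searched in capitals: Icam1 at chr9:21015690-21015989 (plus strand), Tnfrsf1b at chr4:145246821-145247120 (minus strand) and the most upstream of 3 listed Ccrl2 starts at chr9:111057469-111057768 (minus strand).
Icam1: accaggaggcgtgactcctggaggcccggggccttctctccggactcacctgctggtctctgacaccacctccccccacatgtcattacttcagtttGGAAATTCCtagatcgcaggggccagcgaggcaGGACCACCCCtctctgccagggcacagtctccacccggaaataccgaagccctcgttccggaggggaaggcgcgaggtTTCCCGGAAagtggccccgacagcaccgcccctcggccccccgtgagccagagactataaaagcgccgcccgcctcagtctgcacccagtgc
Tnfrsf1b: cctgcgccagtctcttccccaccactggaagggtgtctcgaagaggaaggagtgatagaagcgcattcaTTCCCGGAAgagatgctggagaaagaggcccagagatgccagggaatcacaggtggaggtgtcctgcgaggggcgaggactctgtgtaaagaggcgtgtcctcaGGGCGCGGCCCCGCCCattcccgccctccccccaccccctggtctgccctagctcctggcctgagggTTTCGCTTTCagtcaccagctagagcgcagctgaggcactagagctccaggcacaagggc
Ccrl2: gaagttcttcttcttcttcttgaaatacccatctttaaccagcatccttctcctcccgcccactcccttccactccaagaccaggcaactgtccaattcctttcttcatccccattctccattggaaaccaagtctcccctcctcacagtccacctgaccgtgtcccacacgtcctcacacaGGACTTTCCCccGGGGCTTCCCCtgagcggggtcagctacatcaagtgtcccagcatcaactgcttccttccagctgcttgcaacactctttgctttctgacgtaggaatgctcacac
The motifs, searched on both strands, were a loose NF-κB form GGGNNNNNCC, a palindromic NF-κB form GGAANTTCC, an AP-1 form TGANTCA, a STAT form TTCNNNGAA and an interferon-response form GAAANNGAAA. Of 32851 mouse promoters of this length, 50.8% held the first, 0.928% the second, 7.81% the third, 8.30% the fourth and 3.44% the last. The Icam1 window held GGAAATTCC, the palindromic form, from -153 to -145 relative to the start, a loose NF-κB match on the minus strand from -120 to -111 and TTCCCGGAA, a STAT form, from -42 to -34. In the Tnfrsf1b window the same TTCCCGGAA stood from -181 to -173, overlapping loose NF-κB matches from -77 to -62 and an interferon-response form on the minus strand from -10 to -1. The Ccrl2 window held a loose NF-κB match on the minus strand from -68 to -59 and overlapping ones from -56 to -46, and the windows of its other 2 starts held none of the motifs. Of the windows not shown, that of Cd80 held loose NF-κB matches from -210 to -201 and, on the minus strand, from -52 to -43. It also held an AP-1 form from -42 to -36, and the Cd274 window held none of the motifs. The windows of Cd80 (chr16:38458683-38458982) and Cd274 (chr19:29367188-29367487), both on the plus strand, lie inside the gene spans given above. They belong to annotated starts downstream of the first base of those spans, where no window was searched. These matches are letters in a window, not measured binding.

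Wells held 37542 to 127223 UMI (median 77485). The ribosomal precursor transcript Rn45s made up 49.0% ± 7.04 of the UMI in dCA wells, 43.6% ± 6.75 in BRD-6989 and 52.7% ± 6.88 in DMSO wells (SD, n = 96 wells each), and it was left out of all totals. Levels are given in CPM, the UMI of a gene per 1e6 UMI other than Rn45s, where 1 UMI in a well stands for 14.1 to 45.9. Macrophage markers (10 of 11 listed symbols were in the table) summed to 8278 to 9785 CPM in dCA, 8617 to 10196 in BRD-6989 and 8112 to 10752 in DMSO libraries. Neutrophil and progenitor markers summed to 0 to 13.3 CPM in dCA and 0 to 9.15 in BRD-6989, against 7.66 to 52.8 in DMSO, with Elane at 0. T and NK cell lists stayed at 34.4 or less, with Cd3e and Ncr1 at 0, and dendritic cell markers lay between 7.02 and 68.0, with Flt3 at 0. The part of the neutrophil-list difference in the results below was not tested. Each value is the RNA of a whole well, so fewer cells with a transcript and less of it per cell cannot be told apart.

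Over the 12 matched conditions, dCA and BRD-6989 macrophages both had less Icam1, Cd83 and Cd40 transcript than DMSO macrophages, and BRD-6989 macrophages had more Tnfrsf1b. For each pretreatment and stimulus the 8 times were summed into 1 library, and edgeR's quasi-likelihood test compared the 12 libraries of each inhibitor with those of DMSO, with the stimulus as a block and Benjamini-Hochberg adjustment over all genes tested. Of the 9 genes, 7 had enough counts. Under dCA, 3 of the 7 were lower and 0 higher, where 17.9% of all 5691 genes tested were called (9.82% higher, 8.12% lower). Under BRD-6989, 3 were lower and 1 higher, where 21% of all genes were called (10.5% higher, 10.5% lower). The median log2 change of the 7 was -0.30 under dCA and -0.49 under BRD-6989, against -0.01 and 0.00 for all genes. Both comparisons use the same DMSO libraries. The plot of summed levels by pretreatment shows the individual libraries and the plot of log2 changes their tests.

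**Figure D1:**
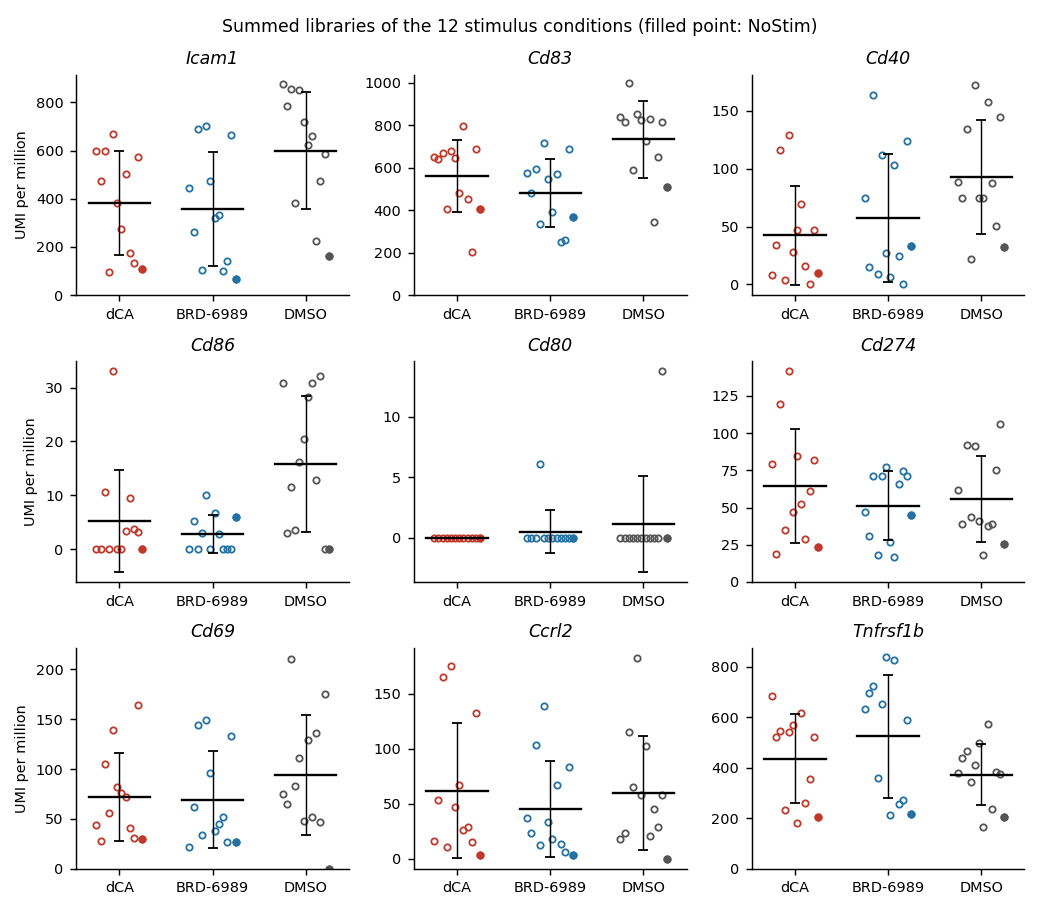
Level of each gene (y axes, CPM without Rn45s) in the 12 summed libraries of dCA, BRD-6989 and DMSO (x axes), filled points being NoStim, lines means and bars SD. The Icam1 means of dCA (382 CPM) and BRD-6989 (359) lie below that of DMSO (600.3), the Tnfrsf1b mean of BRD-6989 (524) above that of DMSO (373), and the points of the groups overlap in every panel.

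Icam1 had 94.8, 428 and 670 CPM in dCA libraries (lowest, median and highest of 12), 65.9, 327 and 704 in BRD-6989 libraries, and 162, 644 and 875 in DMSO libraries. The groups overlapped, but within a stimulus the dCA library was below its DMSO partner in 12 of 12 cases and the BRD-6989 library in 11 of 12. The log2 change was -0.70 ± 0.13 (SE) for dCA (adjusted p = 3.07e-05) and -0.87 ± 0.13 for BRD-6989 (adjusted p = 2.85e-07). The exception under BRD-6989 was Zymosan, with 664 CPM in BRD-6989 and 587 in DMSO. In total, 1375 Icam1 UMI were counted on the dCA plate, 1566 on the BRD-6989 plate and 2120 on the DMSO plate.

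Among the genes of T cell contact, Cd83 had 6694 UMI over all wells. Its libraries had 202, 643 and 797 CPM in dCA, 251, 513 and 717 in BRD-6989, and 342, 813 and 999 in DMSO libraries (lowest, median and highest). The upper ends of both inhibitor groups lay under the DMSO median, while the lower ends overlapped. Cd83 fell by 0.34 ± 0.09 on the log2 scale under dCA (adjusted p = 0.00482, lower in 11 of 12 conditions, the exception being SeV) and by 0.61 ± 0.09 under BRD-6989 (lower in 12 of 12, adjusted p = 7.07e-07).

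Cd40 was sparse, with 155 UMI on the dCA plate, 247 on the BRD-6989 plate and 328 on the DMSO plate, found in 33, 40 and 64 of 96 wells. Its summed libraries ran from 0 through a median of 31.4 to 129 CPM in dCA, from 0 through 30.2 to 164 in BRD-6989 and from 21.7 through 81.0 to 172 in DMSO. Cd40 was thus seen in every DMSO condition, and in neither inhibitor with TDB. The log2 change was -1.33 ± 0.31 for dCA (adjusted p = 0.000914, lower in 12 of 12) and -0.97 ± 0.30 for BRD-6989 (adjusted p = 0.0123, lower in 10 of 12, with LPS and NoStim as exceptions).

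The CD28 ligands were close to the limit of this depth. Cd86 had 19 UMI on the dCA plate, 13 on the BRD-6989 plate and 56 on the DMSO plate, which is 5.28 CPM (exact Poisson 95% interval 3.18 to 8.24), 3.002 (1.60 to 5.13) and 15.8 (11.9 to 20.5). The intervals of both inhibitor plates lay below that of DMSO, and Cd86 was lower than DMSO in 9 of 12 conditions under each. They cover counting error only. Cd86 missed the count filter. Tested without a filter it gave -1.75 for dCA (adjusted p = 0.172) and -2.23 for BRD-6989 (adjusted p = 0.0446), and with total reads in place of UMI -2.34 (adjusted p = 0.245) and -1.58 (adjusted p = 0.549). Cd80 had 0, 2 and 4 UMI on the dCA, BRD-6989 and DMSO plates. The 2 came from 1 MDP well at 30 min and the 4 from 1 Zymosan well at 120 min, too few for a comparison.

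Cd274, the ligand of PD-1, did not pass the test under either inhibitor. It had 18.8, 56.9 and 142 CPM in dCA, 16.7, 56.2 and 77.1 in BRD-6989 and 18.0, 42.1 and 106 in DMSO libraries (lowest, median and highest). The log2 change was 0.27 ± 0.25 for dCA (adjusted p = 0.546, higher in 6 of 12) and -0.05 ± 0.25 for BRD-6989 (adjusted p = 0.926). The ranges of the 3 groups overlapped.

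Cd69 had 28.2, 64.3 and 164 CPM in dCA, 21.9, 48.2 and 149 in BRD-6989 and 0, 78.9 and 211 in DMSO libraries. It was lower in 8 of 12 conditions under dCA (-0.30 ± 0.24, adjusted p = 0.477) and in 9 of 12 under BRD-6989 (-0.44 ± 0.24, adjusted p = 0.213). Ccrl2 likewise missed the threshold, at -0.05 ± 0.29 for dCA (adjusted p = 0.937) and -0.49 ± 0.30 for BRD-6989 (adjusted p = 0.279). Its median library had 37.9 CPM in dCA, 28.1 in BRD-6989 and 51.5 in DMSO.

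Tnfrsf1b, TNF receptor 2, went the other way from Icam1. It had 181, 523 and 684 CPM in dCA, 214, 612 and 840 in BRD-6989 and 167, 381 and 573 in DMSO libraries (lowest, median and highest). All 3 minima were the Poly(I:C) libraries, and the medians of both inhibitor groups exceeded the DMSO median. The log2 change of 0.46 ± 0.09 under BRD-6989 passed (adjusted p = 0.000194, higher in 11 of 12 conditions, TDB being the exception). That of 0.25 ± 0.10 under dCA did not (adjusted p = 0.0638, higher in 10 of 12), although it passed when the MDP library (adjusted p = 0.0198) or the TDB library (0.0301) of each pretreatment was left out, and with total reads in place of UMI (0.0428).

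**Figure D2:**
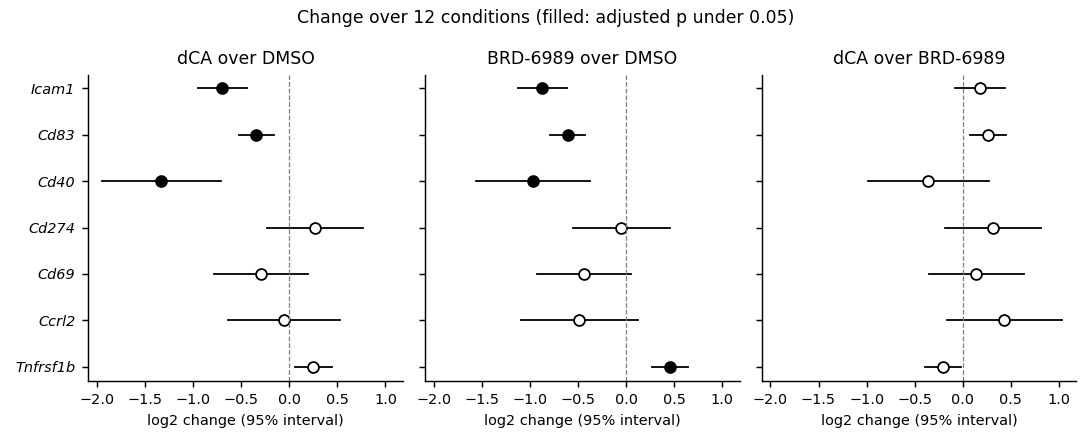
Log2 change with its 95% interval (x axes) of the 7 genes tested (y axes) for dCA over DMSO, BRD-6989 over DMSO and dCA over BRD-6989, each over 12 conditions, filled points having an adjusted p under 0.05. Icam1, Cd83 and Cd40 are filled and left of 0 in both comparisons with DMSO, Tnfrsf1b is filled and right of 0 for BRD-6989 alone, and no point is filled between the inhibitors.

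The share of Rn45s differed between the plates, and part of these calls ended when it entered the fit as a covariate. For dCA, Icam1 (-0.68, adjusted p = 0.00305) and Cd40 (-1.59, adjusted p = 0.00496) still passed and Cd83 did not (-0.27, adjusted p = 0.137). For BRD-6989 none of the 4 passed, with Icam1 at -0.84 (adjusted p = 0.108), Cd83 at -0.43 (0.321), Cd40 at -1.56 (0.270) and Tnfrsf1b at 0.39 (0.414), and 194 genes in all were called in place of 1197. The share averaged 43.6% in BRD-6989 and 52.7% in DMSO wells, so the covariate overlaps with the pretreatment. This fit cannot tell them apart, and the part of Rn45s in these differences was not tested. Without the stimulus block, 0 of the 3 passed under dCA, and Cd83 alone passed under BRD-6989.

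The inhibitors, given at different doses, were set side by side in the same fit. None of the 7 genes tested passed in edgeR or in DESeq2 (3.3% of all genes passed in edgeR), and 2 had an unadjusted p under 0.05 in edgeR. Counts at an unadjusted p, here and below, stand without the share of all genes at that threshold and are not read as results. Cd83 was higher in dCA by 0.26 (95% interval 0.08 to 0.45, adjusted p = 0.112, higher in 10 of 12 conditions), and it passed when the TDB libraries were left out (0.30, adjusted p = 0.0242). Tnfrsf1b was lower in dCA by a log2 change of -0.21 (-0.39 to -0.02, adjusted p = 0.266, lower in 9 of 12). The intervals for Icam1 (-0.08 to 0.43) and Cd40 (-0.99 to 0.27) included 0, as did those for Cd69 (-0.35 to 0.63), Cd274 (-0.18 to 0.81) and Ccrl2 (-0.17 to 1.03). The widest of them still allow differences near 1 on the log2 scale.

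Without a stimulus, the difference in Icam1 pointed the same way but could not be told from the spread between wells. The 8 NoStim wells of a pretreatment were set against those of DMSO, blocked by time, and 4 of the 9 genes had enough counts. None passed under dCA, where 0.908% of all genes did, or under BRD-6989, where 1.06% did. None had an unadjusted p under 0.05 in edgeR, and none passed in DESeq2. Summed over 8 wells, Icam1 had 107 CPM in dCA, 65.9 in BRD-6989 and 162 in DMSO, with log2 changes of -1.07 (95% interval -2.63 to 0.49) for dCA and -1.22 (-2.81 to 0.36) for BRD-6989. Cd83 had 404, 368 and 511 CPM and Tnfrsf1b 207, 219 and 205 in dCA, BRD-6989 and DMSO. Cd69 was at 30.02 CPM in dCA, 27.0 in BRD-6989 and 0 UMI in DMSO, and Ccrl2 had 1 UMI, 1 UMI and 0 UMI.

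Stimuli raised Icam1 in all 3 pretreatments, past the threshold with 5 of the 11 stimuli in dCA, 8 in BRD-6989 and 8 in DMSO. Ccrl2 passed with 3 stimuli in each, Tnfrsf1b with 4 in dCA, 6 in BRD-6989 and 0 in DMSO, Cd69 with 0, 0 and 4, Cd83 with 0, 0 and 3, and Cd40 and Cd274 with 0 in each. The 5 wells of 60 to 180 min of each stimulus were compared with the 5 NoStim wells of the same plate, with time as a block, singly and as the mean of the 11 stimuli.

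In that mean, none of the 7 passed in dCA macrophages in edgeR, where 0.517% of all genes did, and 4 had an unadjusted p under 0.05, among them Icam1 at 1.43 ± 0.43 (adjusted p = 0.126) and Tnfrsf1b at 1.11 ± 0.37 (0.214). Icam1 passed in DESeq2 (adjusted p = 0.0299), and in edgeR without MDP (0.0274) or TDB (0.0348), and Ccrl2 with total reads (0.0488). In BRD-6989 macrophages Icam1 (2.64 ± 0.45, adjusted p = 3.07e-05) and Tnfrsf1b (1.31 ± 0.33, adjusted p = 0.0292) passed, 2 of 7 where 0.503% of all genes did. The Tnfrsf1b call ended when FLA (adjusted p = 0.0542), LPS (0.0579), MDP_LPS (0.0632) or Pam3cys (0.0540) was left out, with total reads (0.0772) and with all 8 times (0.130).

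In DMSO macrophages Icam1 averaged 1.93 ± 0.36 log2 units above NoStim (adjusted p = 0.000177), the single call among the 7, where 0.562% of all genes were called. Cd69 (adjusted p = 0.0506) and Cd83 (1.02 ± 0.28, adjusted p = 0.0529) lay at the threshold. Cd69 passed in 12 of 16 alternatives (adjusted p 0.0141 to 0.0926 over them), among them leaving out CpG, FLA, MDP, Pam3cys, R848, SeV or TDB (0.0296 to 0.0453). Cd83 passed when SeV (0.00516), TDB (0.0430) or MDP (0.0466) was left out, with total reads (0.00698) or in DESeq2 (0.0137). Tnfrsf1b stood 1.04 ± 0.40 above NoStim (adjusted p = 0.379).

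Whether an inhibitor changed the response was tested directly, as the difference of differences in the 180 wells of these times. In edgeR none of the 7 passed for dCA or BRD-6989 (1 unadjusted p under 0.05 each, both of Cd69), and 0% of all genes did. For Icam1 that difference was -0.51 (95% interval -1.63 to 0.61) under dCA and 0.67 (-0.52 to 1.86) under BRD-6989. For Cd83 it was -0.42 (-1.20 to 0.36) and -0.58 (-1.36 to 0.19).

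Single stimuli differed in which of the 7 genes they moved, and all calls were upward. With LPS, 2 genes passed in dCA (1.15% of all genes), 3 in BRD-6989 (1.3%) and 4 in DMSO (1.02%): Icam1 and Ccrl2 in each, Tnfrsf1b in BRD-6989, and Cd83 and Cd69 in DMSO. With MDP_LPS, 3 passed in each pretreatment (1.27%, 1.39% and 1.11% of all genes in dCA, BRD-6989 and DMSO), namely Icam1 and Ccrl2 with Tnfrsf1b in both inhibitors and with Cd69 in DMSO. With Zymosan, Icam1 and Ccrl2 passed in dCA (0.868%) and BRD-6989 (1.09%), and Icam1, Cd83 and Cd69 in DMSO (0.58%). CpG moved Icam1 and Tnfrsf1b in dCA (0.259%) and BRD-6989 (0.438%), and Icam1 in DMSO (0.254%). R848 did the same in dCA (0.443%), BRD-6989 (0.924%) and DMSO (0.544%).

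Poly(I:C) moved 0 genes in dCA (0.388%), Icam1 in BRD-6989 (0.308%) and Icam1, Cd83, Ccrl2 and Cd69 in DMSO (0.562%). Pam3cys moved Tnfrsf1b in dCA (0.536%), Icam1 and Tnfrsf1b in BRD-6989 (0.519%) and Icam1 in DMSO (0.49%). FLA moved 0 genes in dCA (0.259%), Icam1 and Tnfrsf1b in BRD-6989 (0.259%) and Icam1 in DMSO (0.254%). MDP, SeV and TDB moved none of the 7 past the threshold in edgeR in any pretreatment, where 0%, 0% and 0.109% of all genes passed with MDP, 0%, 0.0649% and 0.0544% with SeV and 0.0185%, 0.0162% and 0.0907% with TDB in dCA, BRD-6989 and DMSO. At an unadjusted p under 0.05, MDP had 0 in dCA, 3 in BRD-6989 and 4 in DMSO, SeV had 0, 0 and 2, and TDB had 1, 3 and 4. The shares of all genes given above are at the adjusted threshold and cannot be set against these counts. Calls differing between pretreatments do not show that the responses differ, which was tested for the mean of the stimuli alone.

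**Figure D3:**
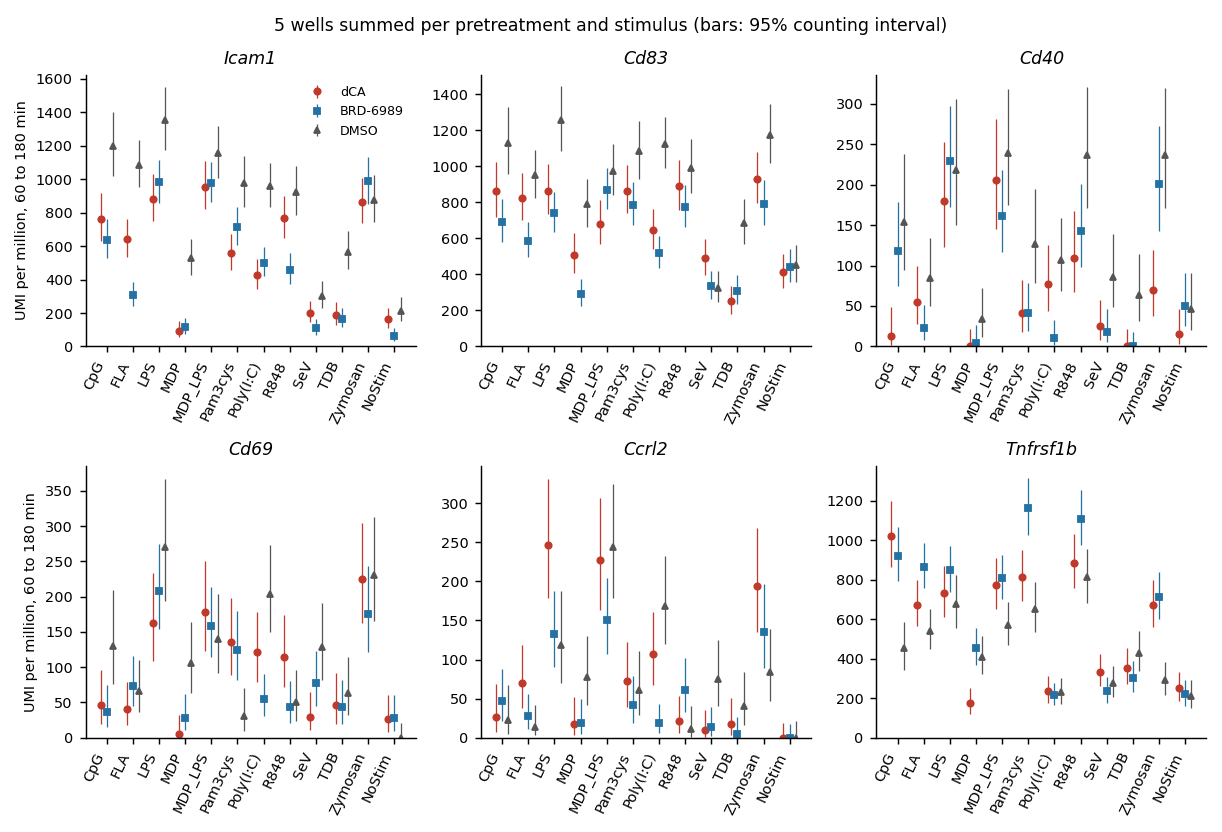
Level at 60 to 180 min (y axes, CPM without Rn45s, 5 wells summed, bars exact 95% counting intervals) of Icam1, Cd83, Cd40, Cd69, Ccrl2 and Tnfrsf1b for 11 stimuli and NoStim (x axes) in dCA, BRD-6989 and DMSO. Icam1 with MDP stands at 94.5 and 115 CPM in dCA and BRD-6989 and at 527 in DMSO, and Ccrl2 is at 0 in all 3 NoStim groups.

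In dCA, Icam1 at these times was highest with MDP_LPS (956 CPM), and among neighbours in its order of levels the 95% counting intervals of Poly(I:C) (426) and SeV (202) did not overlap. In BRD-6989, Zymosan, LPS and MDP_LPS (987, 982 and 978) stood above Pam3cys (716), and FLA (307) above TDB (164). In DMSO, the order ran from LPS (1353) through CpG (1199), MDP_LPS (1157), FLA (1088), Pam3cys (979), Poly(I:C) (960), R848 (925), Zymosan (879), TDB (567.9), MDP (527) and SeV (304) to NoStim (213). There the intervals of Zymosan and TDB, and of MDP and SeV, did not overlap. Other neighbours overlapped in each pretreatment. With MDP both inhibitors stood below DMSO, with 94.5 CPM (54.0 to 153) in dCA and 115 (73.5 to 171) in BRD-6989, against 527 (427 to 645) in DMSO, and likewise with TDB, with 187 and 164 CPM against 567.9. With Zymosan the levels were 865, 987 and 879 in dCA, BRD-6989 and DMSO. Differences between stimuli in the inhibitor effect were not tested.

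Fitted changes of Icam1 with LPS were 2.26 in dCA, 3.93 ± 0.51 in BRD-6989 and 2.54 ± 0.43 in DMSO. The NoStim wells of these times had 162 CPM in dCA, 64.3 in BRD-6989 and 213 in DMSO. Cd83 with LPS reached 863 CPM in dCA, 740 in BRD-6989 and 1254 in DMSO, the last a log2 change of 1.46 ± 0.34 over NoStim (adjusted p = 0.00668). Neighbouring Cd83 levels overlapped in all 3 orders except TDB (684) and NoStim (450) in DMSO. The lowest Cd83 level was that of TDB in dCA (250.7), of MDP in BRD-6989 (292) and of SeV in DMSO (325).

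Cd40 passed with no stimulus on any plate, and LPS and MDP_LPS were among its 4 highest conditions on each. MDP_LPS gave 205 CPM in dCA, 162 in BRD-6989 and 239 in DMSO, and LPS gave 179, 229 and 218. With CpG it had 13.4 in dCA, 119 in BRD-6989 and 154 in DMSO. With MDP it had 0, 4.78 and 33.3.

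Ccrl2 had no UMI in any NoStim well of 60 min and later, so its changes are given as lower bounds against 3 counts over the NoStim group. The bounds take the stimulated level as counted, without its own counting error. With LPS it was at least 15.8-fold higher in dCA (247 CPM), at least 9.66-fold in BRD-6989 (133) and at least 6.87-fold in DMSO (119). With MDP_LPS the bounds were 14.5, 10.9 and 14.1, and with Zymosan 12.4, 9.82 and 4.89. With Poly(I:C) it had 107 CPM (66.8 to 161) in dCA, 18.3 (5.94 to 42.7) in BRD-6989 and 169 (119 to 232) in DMSO, so that the counting intervals of dCA and DMSO overlapped and that of BRD-6989 lay below both. The difference was not tested. Cd69, also without UMI in NoStim wells of DMSO, was there at least 15.6-fold higher with LPS, 13.4-fold with Zymosan, 11.8-fold with Poly(I:C) and 8.10-fold with MDP_LPS.

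Tnfrsf1b kept another order of stimuli. In BRD-6989 it was highest with Pam3cys (1165 CPM) and R848 (1111), in dCA with CpG (1023) and R848 (888), and in DMSO with R848 (812) and LPS (680). Poly(I:C), which gave 960 CPM of Icam1 in DMSO, left Tnfrsf1b at 237 in dCA, 216 in BRD-6989 and 231 in DMSO, beside 250, 221 and 213 in NoStim. The log2 changes that passed were 2.02 ± 0.45 for CpG in dCA and 1.69 to 2.17 for the others in both inhibitors. With Zymosan Tnfrsf1b had 671 in dCA, 712 in BRD-6989 and 293 in DMSO.

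At 15 to 45 min, none of the genes tested (6 in dCA, 6 in BRD-6989 and 7 in DMSO) passed against NoStim in the mean of the stimuli in edgeR, where 0%, 0.0963% and 0.0502% of all genes did. An unadjusted p under 0.05 was found for 1, 0 and 1 gene in dCA, BRD-6989 and DMSO. Stimulated wells of 120 to 180 min were then set against those of 15 to 45 min with the stimulus as a block, a comparison chosen after seeing the data. Late wells had more Icam1, Cd40, Cd83 and Tnfrsf1b on all 3 plates, and more Cd69 on both inhibitor plates: 5 of 7 genes in dCA (3.23% of all genes called, 2.45% higher), 5 in BRD-6989 (3.96%, 3.16% higher) and 4 in DMSO (3.53%, 2.63% higher). Time is also the plate row, and the NoStim wells were not part of the comparison. NoStim Icam1 had 107 CPM over all times and 162 at 60 to 180 min in dCA. The same values were 162 and 213 in DMSO, and 65.9 and 64.3 in BRD-6989. NoStim Cd40, on few UMI, had 10.0 and 15.6 in dCA, 32.9 and 50.5 in BRD-6989, and 32.4 and 46.1 in DMSO. NoStim Cd83 had 404 and 412, 368 and 441, and 511 and 450 in dCA, BRD-6989 and DMSO. The part of the late rise that occurs without a stimulus was not tested.

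Icam1 differed between late and early wells by 2.19 ± 0.26 log2 units in dCA, 2.22 ± 0.28 in BRD-6989 and 2.13 ± 0.19 in DMSO (adjusted p = 1.15e-15 in DMSO). Its sums over the 11 stimulated wells in dCA were 81.6, 117, 227, 265, 474, 552, 802 and 727 CPM from 15 to 180 min. In BRD-6989 they were 17.0, 126, 217, 292, 400.5, 525.6, 712 and 749, and in DMSO 278, 177, 287, 510.2, 792, 1127, 1101 and 965. The inhibitor plates were below DMSO at each of the 8 times and had their maxima at 150 min (dCA) and 180 min (BRD-6989), against 120 min in DMSO. Neighbouring times lay close to these maxima, with 1127 and 1101 at 120 and 150 min in DMSO. At 150 and 180 min the sums were 802 and 727 in dCA and 712 and 749 in BRD-6989. The timing of the maxima was not tested. At 15 min single wells ranged from 25.1 to 165 in dCA, from 0 to 68.3 in BRD-6989 and from 29.2 to 637 in DMSO.

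**Figure D4:**
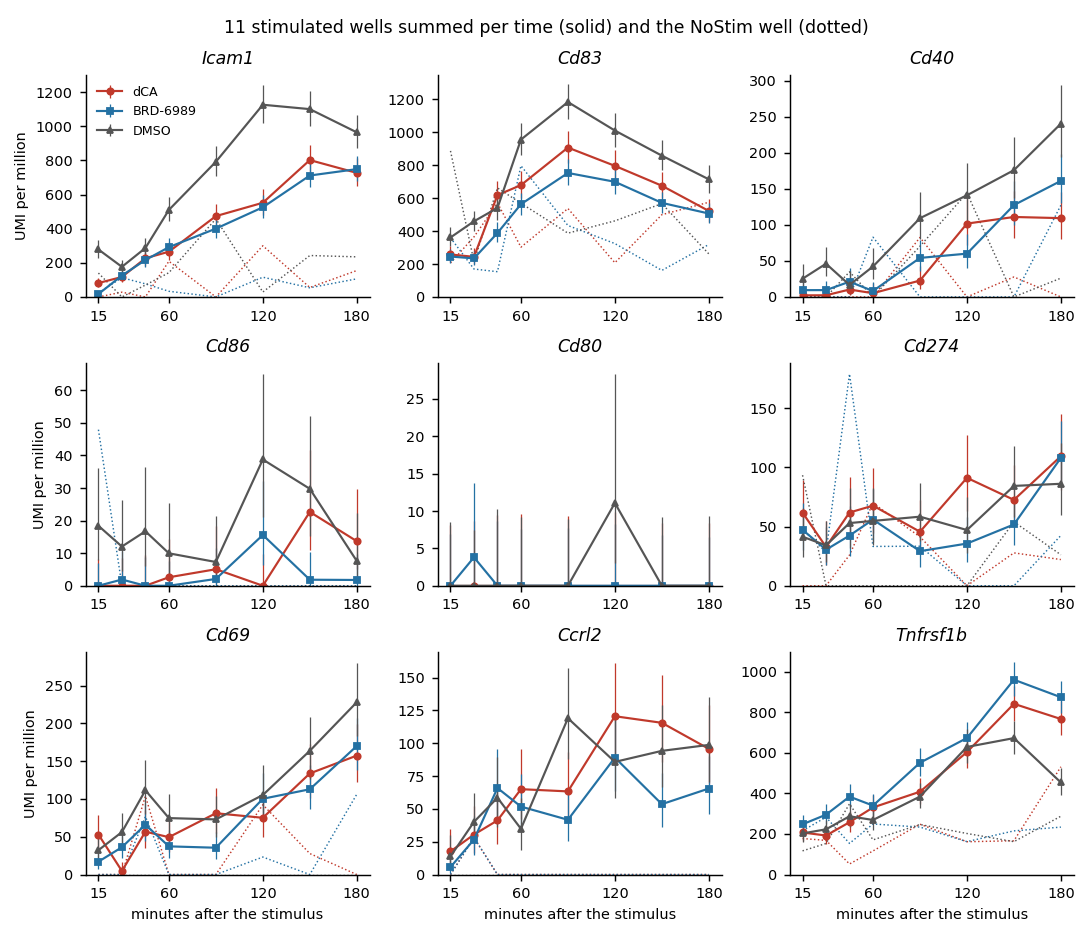
Level over time (x axes, minutes; y axes, CPM without Rn45s) as the sum of the 11 stimulated wells (solid lines, bars exact 95% counting intervals) and the single NoStim well (dotted lines) in dCA, BRD-6989 and DMSO. Cd83 is highest at 90 min on all 3 plates (907, 753 and 1184 CPM), while Cd40 goes on to 109, 161 and 241 CPM at 180 min.

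As the plot of time courses shows, Cd83 was highest at 90 min on each plate, with 907 CPM in dCA, 753 in BRD-6989 and 1184 in DMSO, and stood at 522, 507 and 714 at 180 min. Cd40 was nearly unseen early, at 2.21 in dCA, 9.45 in BRD-6989 and 25.3 in DMSO at 15 min, and it reached 109, 161 and 241 at 180 min. The late-over-early change of Cd40 was 3.54 ± 0.52 in dCA, 2.63 ± 0.52 in BRD-6989 and 2.62 ± 0.40 in DMSO, the greatest of the 7 genes on each plate. Tnfrsf1b was highest at 150 min on all 3 plates, at 841, 960 and 672 CPM. Cd69 changed by 1.84 ± 0.51 in dCA (adjusted p = 0.0205) and 1.73 ± 0.42 in BRD-6989 (0.00348), and by 1.25 ± 0.43 in DMSO (0.0967). Both Cd69 calls ended with total reads (0.0628 in dCA, 0.0513 in BRD-6989). Ccrl2 and Cd274 did not pass.

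Genes that work beside these were taken from 5 lists without the 9 members. Their counts stand against 17.9% of all genes called for dCA (9.82% higher, 8.12% lower) and 21% for BRD-6989 (10.5% higher, 10.5% lower). Of 22 costimulatory and coinhibitory genes, 10 were tested, and 1 was higher and 4 lower under each inhibitor (median log2 change -0.30 for dCA and -0.33 for BRD-6989). Cd200r1, an inhibitory receptor of myeloid cells, had 78.1 ± 32.3 CPM in dCA and 98.3 ± 25.4 in BRD-6989, against 32.7 ± 19.2 in DMSO (SD, n = 12 libraries each). 4632428N05Rik, the gene of the checkpoint ligand VISTA, fell by 0.80 ± 0.16 under dCA and by 1.03 ± 0.16 under BRD-6989, and Lgals9 (galectin-9) fell by 0.71 ± 0.23 and 0.98 ± 0.22. Tnfsf9, the ligand of 4-1BB, fell by 0.85 ± 0.18 under dCA and was at -0.37 ± 0.17 under BRD-6989 (adjusted p = 0.127).

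Of 24 genes of the TNF receptor family and its proximal signalling, 16 were tested. Under dCA 4 were lower, under BRD-6989 5 were lower, and 0 were higher (median -0.36 and -0.39), where 17.9% and 21% of all genes were called. Tnfrsf1a, TNF receptor 1, fell by 1.06 ± 0.19 under dCA and by 0.88 ± 0.19 under BRD-6989, opposite in sign to Tnfrsf1b. Birc3, an NF-κB target that restrains cell death, and Nfkbia, the NF-κB inhibitor IκBα, were among the others. Nfkbia was also the single gene of these lists that passed in the mean response to stimuli in DMSO (2.31 ± 0.24, adjusted p = 1.35e-12).

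Of 16 adhesion genes 9 were tested, with 0 higher and 2 lower under dCA, and 1 higher and 3 lower under BRD-6989 (median -0.05 and -0.01). The count under dCA is near the 17.9% of all genes called there, and 21% were called for BRD-6989. The integrin subunit Itgam, part of the Mac-1 receptor of ICAM-1, fell by 0.47 ± 0.10 under dCA and by 0.32 ± 0.09 under BRD-6989. Cd44 was also lower, at -0.22 ± 0.07 under dCA and -0.26 ± 0.07 under BRD-6989. Itga4 rose by 0.39 ± 0.13 under BRD-6989 and stood at 0.31 ± 0.13 under dCA (adjusted p = 0.0933). Of 14 genes of the chemerin system and chemokine receptors 5 were tested, 3 higher under dCA and 4 under BRD-6989, with 0 lower. Ccr3 and Ccr1 averaged 14.64 and 21.55 CPM in DMSO libraries, 167.3 and 77.76 in dCA and 114.1 and 51.86 in BRD-6989. Such genes can pass the count filter through the inhibitor libraries alone, so the lack of lower genes is not read as a result. Ccr3 changed by 3.62 ± 0.28 under dCA and 3.04 ± 0.29 under BRD-6989, and Ccr1 by 1.92 ± 0.29 and 1.28 ± 0.30. Of 9 MHC class II genes 2 were tested, and Ctss, the protease of invariant chain, rose by 0.35 ± 0.08 under BRD-6989.

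Across the 36 summed libraries, the genes whose log2 level followed each member most closely were sought among the 1142 genes averaging 50 UMI or more. For Icam1 they were Nfkbia (Pearson r = 0.927), Ehd1 (0.913) and Kctd12 (0.900), for Cd83 Tnip3 (0.843), Slc15a3 (0.842) and Clec4e (0.822), and for Cd40 Ccl3 (0.861), Ccl12 (0.838) and H3f3b (0.830). Tnfrsf1b went with Gadd45b (0.851), Nfkbiz (0.846) and Cxcl1 (0.839). Ccrl2 went with Cdkn1a (0.864), Irf1 (0.841) and Peli1 (0.837), and Cd69 with Irf1 (0.782), Cdkn1a (0.737) and Ccl4 (0.730), so that the lists of Ccrl2 and Cd69 shared Irf1 and Cdkn1a. For Cd274 the closest was Tiparp (0.637). Among the members themselves, Icam1 and Cd83 were most alike (0.874), then Cd69 and Ccrl2 (0.780), and Cd83 and Cd274 least (0.235). The points share plates, stimuli and depth, so these values describe the libraries.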

How the data were processed

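Gene expression was measured by 3' digital gene expression in 288 wells. The authors deposited UMI counts and total read counts per gene and well, not normalized. BWA, edgeR and the build mm10 come from the submitters' processing notes; versions, annotation and counting steps were not given in the sources used here. Times are those of the sample labels, where the series text says 0 to 4 h.

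From the deposited UMI counts, Rn45s was removed, and levels were set per 1e6 remaining UMI (CPM). Tests used edgeR 4.0.16 in R 4.3.3 (with limma 3.58.1): TMM, the quasi-likelihood test, 2-sided, Benjamini-Hochberg within each of 49 comparisons, threshold 0.05. Summed libraries passed filterByExpr (minimum count 10), and genes averaging 1 UMI or more were kept for single wells. Likeness used log2 of level + 10, for members averaging 5 UMI or more per library. Intervals cover counting error only. The bound of 3 counts covers that of the NoStim group alone, not that of the stimulated wells.

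Alternatives were DESeq2 1.42.0, total reads, other filters and scalings, no block, an Rn45s covariate and leaving out each stimulus. On simulated counts the dCA comparison recovered 102 of 107 genes changed 2-fold, and the mean response 16 of 107 and, of those changed 4-fold, 58 of 93. All simulated wells shared a single mean profile and an assumed spread, without other differences between plates, stimuli or times. What would be recovered in the measured wells may therefore differ. All 9 genes are named throughout. From the other lists at most 2 genes each way per comparison were named, by smallest p among those called. Tnfrsf1a under BRD-6989, Lgals9 under dCA and the values of Tnfsf9 under BRD-6989 and Itga4 under dCA stand beside them for comparison. The genes, lists and tests were chosen with earlier results of these data known.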

Additional observations from a re-analysis of the deposited data

Results flagged for a closer look

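Among unstimulated wells, 3 single wells stood apart from the 7 others of their pretreatment by Dixon's ratio, out of 14 groups of 8 wells looked at; chance alone marks about 1 group in 20. Cd83 reached 797 CPM (48 UMI) in the BRD-6989 well of 60 min, where the next highest had 434. Tnfrsf1b reached 530.8 (24 UMI) in the dCA well of 180 min, where the next had 247.9. Cd274 reached 178.9 in the BRD-6989 well of 45 min, where the next had 47.91; this rests on 7 UMI.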

How the results depend on the processing

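Over the 12 conditions, the count of the 7 genes called under dCA went from 3 to 0 without the stimulus block, and ran from 3 to 4 with 1 stimulus left out. Under BRD-6989 it went from 4 to 0 with the Rn45s share as a covariate and to 1 without the block, and stayed at 4 with each stimulus left out. Between the inhibitors it was 0, and 0 to 1 with 1 stimulus left out. In the mean response it went in dCA from 0 to 1 with total reads or DESeq2 (0 to 1 with 1 stimulus left out), in BRD-6989 from 2 to 1 with total reads or all 8 times (1 to 2), and in DMSO from 1 to 3 with total reads, DESeq2 or all 8 times and to 2 without TMM or with genes of at least 0.1 UMI (1 to 3).

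Signs turned for genes that passed in neither setting. Ccrl2 under dCA (-0.05) went to 0.11 without the block and to 0.140, 0.024, 0.001 and 0.004 without MDP, Poly(I:C), SeV and TDB (-0.200 to 0.140 with 1 stimulus left out). Cd274 under BRD-6989 (-0.05) went to 0.16 with the covariate and to 0.022, 0.001 and 0.006 without MDP, R848 and Zymosan (-0.153 to 0.022). With the covariate, Cd69 went to 0.074 under BRD-6989 and to -0.16 between the inhibitors. In unstimulated dCA wells Cd274 went to -0.37 and Tnfrsf1b to 0.27 with reads, and Tnfrsf1b to 0.005 without the time block. The response of Cd40 in dCA went to -0.26 with reads and that of Cd274 in BRD-6989 to -0.05 with all 8 times. The dCA effect on the response turned for Tnfrsf1b (0.034 without TMM, 0.066 with genes of at least 0.1 UMI, 0.20 with all 8 times, 0.063 with 36 libraries), Cd274 (0.12 with all 8 times), Ccrl2 (0.18) and Cd40 (0.49, both with 36 libraries), and the BRD-6989 effect for Tnfrsf1b (-0.02 with reads). The causes were not tested.

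Counts of all genes called ran from 595 to 1145 for dCA (1021 as reported), from 194 to 1320 for BRD-6989 (1197) and from 62 to 263 between them (188). In unstimulated wells they ran from 40 to 83 for dCA (53) and from 36 to 98 for BRD-6989 (62). In the mean response they ran from 13 to 131 in dCA (28), 14 to 95 in BRD-6989 (31) and 27 to 115 in DMSO (31), and between late and early DMSO wells reached 325 with reads (201). The share of calls that were higher moved from 54.75% to 41.24% without TMM for dCA, from 66.49% to 50.91% between the inhibitors, and from 49.96% to 62.89% with the covariate for BRD-6989. DESeq2 moved it from 84.91% to 65.06% in unstimulated dCA wells, from 70.97% to 58.16% in BRD-6989 wells, and from 77.42% to 88.64% in the BRD-6989 response. The main tests paired summed libraries by stimulus, and wells set against NoStim or DMSO wells by time. By replicate number, no paired analysis was possible because the labels give wells none. With 1 UMI worth 14.1 to 45.9 CPM in a well, single-well values of Cd40, Cd69, Cd274, Ccrl2, Cd80 and Cd86 rest on few counts, and for the mean response most 2-fold changes were missed in simulated data.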
